A study of Mus musculus with 28 samples.

Results

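Chromatin accessibility was described at 10 genes of the corticosteroid pathway: the glucocorticoid receptor gene Nr3c1, the mineralocorticoid receptor gene Nr3c2, the steroid-activating enzyme gene Hsd11b1, and the classical target genes Fkbp5, Tsc22d3, Sgk1, Klf9, Zbtb16, Dusp1 and Errfi1. They were taken by name from the 21938 protein-coding genes of the GENCODE M21 annotation, and their regions were found by position alone. A region was assigned to a gene when it overlapped the gene or the 20 kb to either side, which gave 56 of the 46189 regions of the control list and 76 of the 64883 regions of the db/db list.

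Glucocorticoids diffuse into the cell and bind receptors held by heat shock protein complexes, after which the receptor enters the nucleus and binds DNA. The glucocorticoid and the mineralocorticoid receptor recognise the same response element, an inverted repeat of a half-site with a short spacer between the arms. In the retina Müller cells, the main glia, express the glucocorticoid receptor, and synthetic glucocorticoids are injected into the eye to treat diabetic macular oedema.

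ATAC-seq, in which a transposase cuts open chromatin and inserts adapters there, was carried out in its omni-ATAC form on sorted Müller cells of mice aged 6 months. Mice of the db/db genotype lack a functional leptin receptor, through homozygous mutation of Lepr, and become obese and diabetic, whereas the control list carries the label WT and the study counted wild-type and heterozygous db/+ animals as controls. The study bred BKS mice from more than 1 supplier, partly on a mixed background, and used animals of both sexes. The colony and the sex behind each list were not given in the sources used here. Müller cells were taken as the CD29+ fraction after depletion of CD11b+ and CD31+ cells on magnetic columns, a selection that can carry over other retinal cells. The labels give 2 replicates per genotype, and 1 peak list per genotype, attached to replicate 1, was analysed here. Differences between the genotypes could therefore not be checked against replicates, and no p-values were computed for them.

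Every peak comes with its position, its fold enrichment as the signal, and its p and q values on the −log10 scale. Overlapping peaks were merged into 1 region with the values of the peak with the highest signal, and the positions given for shared regions are those of the db/db list. The signal was expressed as a percentile among all regions of the same list, where 100 is the highest. The control list covered 35.8 Mb and the db/db list 46.3 Mb, and the read depth behind each is unknown. The 10 Müller cell marker genes all had a promoter region in both lists, and all of their 46 control regions had a counterpart in db/db cells. Of the 42 control regions at rod marker genes, 15 had none (35.7%, 95% Wilson interval 23.0 to 50.8), against 0 of 21 at microglial, 0 of 21 at endothelial and 1 of 21 at astrocyte markers. Over control regions at all coding genes, 4.06% had none. Of the 37 db/db regions at endothelial markers, 16 were db/db-only (43.2%, 28.7 to 59.1), and 10 of these 16 were at the single gene Flt1. Over db/db regions at all coding genes this share was 29.7%, inside the endothelial interval. Over the other marker lists it ran from 20.6% at rod to 28.6% at astrocyte markers. In bulk samples like these, fewer cells of a type and less open chromatin per cell cannot be told apart, and read-level checks of the cell mixture were not made here.

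Sequences from RefSeq (GRCm38.p6) are shown first, because both receptors recognise the response element described above. RefSeq promoters, 250 bases before to 50 bases after a start site, were matched for 8 of the 10 genes in 16 windows; Nr3c1 and Zbtb16 had no entry. The core of the response element was searched as ACANNNTGT on both strands. It occurred in 2 of the 16 windows, both of Sgk1, against 6.85% of 32817 promoters of the same length. The same half-sites 4 bases apart, a comparison string, occurred in none of the 16 windows and in 7.73% of all promoters. The half-site TGTTCT alone occurred in 4 windows, of Sgk1 and Tsc22d3, against 19.0% of all promoters. Sgk1 had the most windows of the 8 genes, and windows of the same gene are not independent. By gene, the core was found at 1 of the 8 and the half-site at 2 of the 8. A match describes letters only and is not a binding site.

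The window of Sgk1, which encodes serum- and glucocorticoid-regulated kinase, stood out by a full palindrome of 2 complete half-sites 3 bases apart. Only 3 of the 32817 promoters held one (0.00914%), a string that was searched after the windows had been seen. The following 250 bases end at the base before an annotated Sgk1 start site, with the palindrome in capitals, at chr10:21993640-21993889 on the plus strand.
Sgk1, upstream start site: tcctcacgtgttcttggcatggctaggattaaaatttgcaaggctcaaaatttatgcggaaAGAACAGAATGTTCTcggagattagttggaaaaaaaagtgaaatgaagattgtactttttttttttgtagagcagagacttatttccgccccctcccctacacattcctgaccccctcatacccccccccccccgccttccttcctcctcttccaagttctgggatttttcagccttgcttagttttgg
The palindrome lay at chr10:21993701-21993715, 951 bp before the next start site downstream. It fell between 2 regions that both lists held, in a gap of 634 bp in the control and 624 bp in the db/db list, and was 267 and 259 bp away from the start of the second of them. The letters of the palindrome were therefore in no region of either list. The 250 bases before that next start site, at chr10:21994416-21994665 on the plus strand, lay wholly inside the stronger of these regions and held a TATA box, in capitals, but no core.
Sgk1, main promoter region: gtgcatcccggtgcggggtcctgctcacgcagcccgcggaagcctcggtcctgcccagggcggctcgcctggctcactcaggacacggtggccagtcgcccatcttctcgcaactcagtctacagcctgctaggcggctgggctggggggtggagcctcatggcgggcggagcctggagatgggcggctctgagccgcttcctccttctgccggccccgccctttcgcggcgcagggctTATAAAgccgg

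Another element was shared by the promoters of Dusp1 and Errfi1, which are rapidly induced genes. The cAMP response element TGACGTCA, which binds CREB family factors, occurred in 2 of the 16 windows, against 1.79% of all promoters. Both copies lay inside a region of the control list and of the db/db list. They are in capitals in the 250 bases before the Dusp1 start site at chr17:26508473-26508722 (minus strand) and the Errfi1 start site at chr4:150854820-150855069 (plus strand).
Dusp1: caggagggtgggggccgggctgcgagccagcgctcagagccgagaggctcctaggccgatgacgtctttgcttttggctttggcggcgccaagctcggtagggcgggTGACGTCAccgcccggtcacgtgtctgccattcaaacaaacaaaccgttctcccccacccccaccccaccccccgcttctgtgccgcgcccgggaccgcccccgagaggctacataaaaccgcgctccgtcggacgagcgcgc
Errfi1: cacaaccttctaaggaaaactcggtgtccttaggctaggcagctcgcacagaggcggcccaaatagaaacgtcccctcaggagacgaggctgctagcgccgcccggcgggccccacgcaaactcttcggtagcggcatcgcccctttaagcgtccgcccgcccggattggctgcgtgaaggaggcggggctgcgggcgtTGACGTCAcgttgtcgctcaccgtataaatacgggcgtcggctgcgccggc
The Fkbp5 promoter is shown because it had the highest percentile of all promoter regions described here. It lay at chr17:28486150-28486399 on the minus strand, with an E-box, CACGTG, in capitals. E-boxes of this form occurred in 7.15% of all promoters, and in 3 of the 16 windows.
Fkbp5: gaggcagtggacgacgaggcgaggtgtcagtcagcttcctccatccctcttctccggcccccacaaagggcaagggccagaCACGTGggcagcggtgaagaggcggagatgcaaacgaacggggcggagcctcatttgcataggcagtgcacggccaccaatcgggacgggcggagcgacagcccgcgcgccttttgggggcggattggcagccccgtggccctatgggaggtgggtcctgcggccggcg

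For the regions themselves, sequence was read from annotated transcripts of the same build, so that only exonic bases could be searched. Of the 77 regions at the 10 genes, 23 had at least 50 exonic bases, 15 of them promoter regions and 8 elsewhere, and 3 of the 23 held the core ACANNNTGT. When 1 more fixed base was required on each side, a G before and a C after at a distance of 1 base, a single region remained. It was a db/db-only region 5.71 kb upstream of the outermost Fkbp5 start, at chr17:28522962-28523547, within an exon of the lincRNA E230001N04Rik. Its summit lay within 1 kb of annotated starts of E230001N04Rik and of Gm20109, so it cannot be given to Fkbp5 alone. The match began at base 28523178 and its middle lay 54 bp from the summit, in the following 133 bases of the plus strand (chr17:28523118-28523250).
Fkbp5, upstream db/db-only region: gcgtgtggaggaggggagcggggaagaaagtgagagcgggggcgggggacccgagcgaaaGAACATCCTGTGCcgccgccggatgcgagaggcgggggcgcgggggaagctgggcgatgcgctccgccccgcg
Among 4726 regions of the db/db list whose 201 bp around the summit were wholly exonic, 0.423% held the longer string and 3.45% the core. In the control list these shares were 0.407% and 3.12% of 3688 regions. The 23 regions were searched over all their exonic bases, not only around the summit. Their counts therefore cannot be set directly beside these shares. The longer string was chosen after earlier results on these lists were known.

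**Figure D1:**
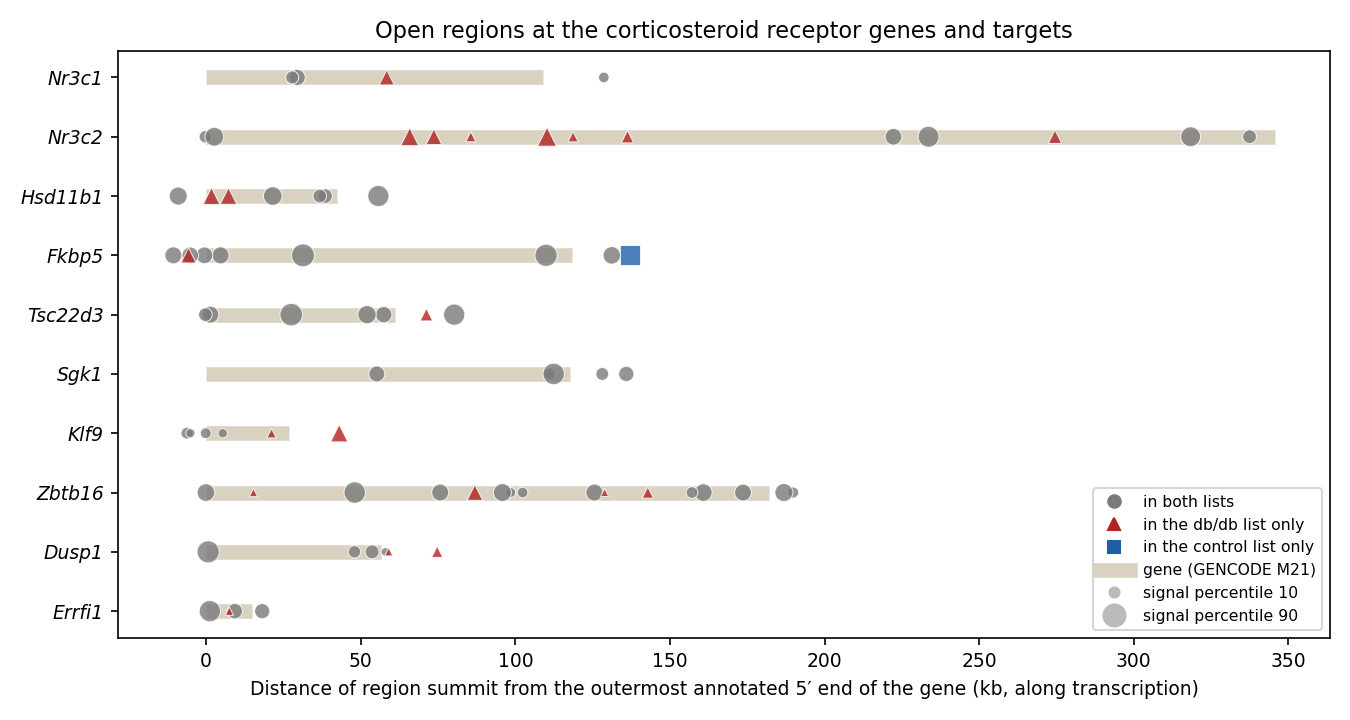
Regions at the 10 genes, 1 gene per line, plotted by the distance of their summit from the outermost annotated 5′ end of the gene in kb along the direction of transcription. Grey circles are regions found in both lists, red triangles are found in the db/db list only, the blue square in the control list only, symbol area grows with the signal percentile, and bars are the genes. Of the 21 db/db-only regions, 7 lie within Nr3c2, none lies within 1 kb of a coding start site, and 3 lie that near a noncoding start. Over all db/db-only regions at coding genes the share near a coding start was 12.5%, within the 14.3% that 0 of 21 allows.

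Regions at the pathway genes were mostly shared. Of the 56 control regions, 1 had no counterpart in the db/db list (1.79%, with a 95% Wilson interval of 0.316 to 9.45), against a background of 4.06% over all regions at protein-coding genes. Of the 76 db/db regions, 21 had no counterpart in control cells (27.6%, 18.8 to 38.6), against a background of 29.7%. The intervals cover counting error only, and both contain the background share. A db/db-only region was found at 9 of the 10 genes, and at 56.7% of coding genes that had any db/db region. A single gene, Fkbp5, had a control-only region, as did 11.3% of coding genes with a control region. The larger number of db/db-only than of control-only regions at these genes thus followed the lists as a whole.

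With the db/db list cut down by −log10 p until its size equalled that of the control, 8 of 56 control regions (14.3%, 7.42 to 25.7) and 9 of 57 db/db regions (15.8%, 8.54 to 27.4) were in 1 list only. Over all coding genes these shares were 12.5% and 12.0%. The excess of db/db-only regions was gone with lists of equal number. Over whole lists of equal number the counts of regions in 1 list only must be nearly equal. The loss of the excess thus follows largely from the cut. Sgk1 then had 3 control-only and 0 db/db-only regions, the former being its intronic and its 2 downstream regions. Nr3c2 had 1 control-only and 3 db/db-only regions, and the upstream db/db-only region of Fkbp5 with the core also remained. Of the 8 control-only regions of this setting, 1 was control-only in the full lists.

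**Figure D2:**
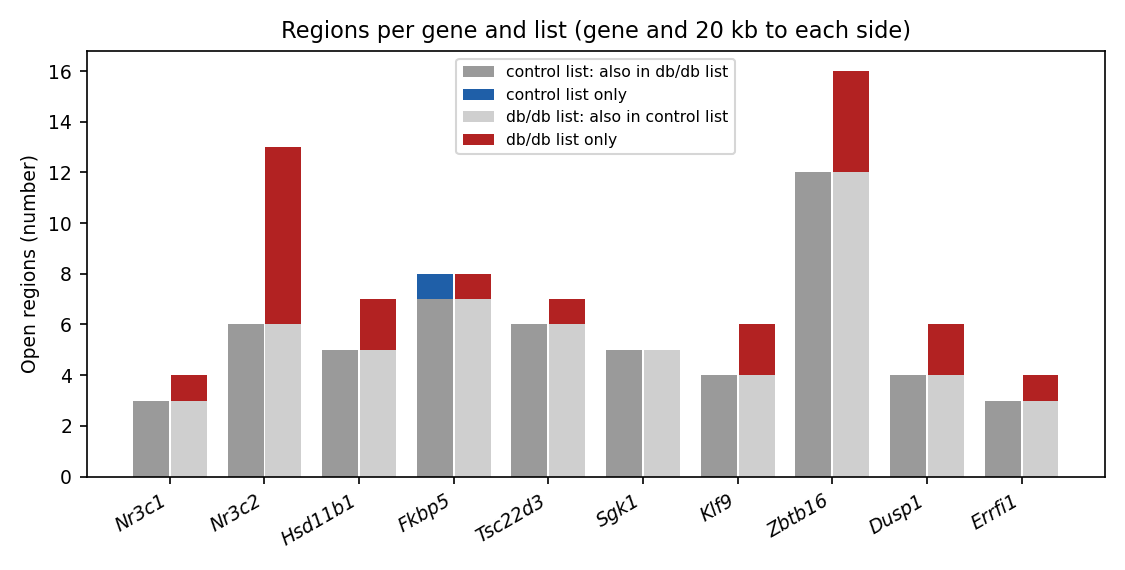
Number of regions per gene in the control list (left bar of each pair) and in the db/db list (right bar), with regions found in that list only in blue (control) and red (db/db). Nr3c2 has 6 control and 13 db/db regions, and Sgk1 has 5 in each list.

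The position of the 21 db/db-only regions was counted next. None lay within 1 kb of a start site of any coding gene, which with 21 regions allows a share of up to 14.3%, a limit that takes in the 12.5% of all db/db-only regions at coding genes. Of the 21 regions, 3 lay within 1 kb of the start of a noncoding gene. By place, 16 lay in introns, 4 downstream and 1 upstream of the gene. Their median percentile in the db/db list was 21.9, as over all db/db-only regions at coding genes (21.9), and 3 of the 21 (14.3%) reached the 50th percentile, against 12.6% of all db/db-only regions at coding genes. These were 2 regions of Nr3c2 and 1 of Klf9.

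The receptors differed in how many regions they had. Nr3c1 (ENSMUSG00000024431.15, chr18:39410545-39519421, minus strand), whose product binds cortisol and corticosterone, had 3 control and 4 db/db regions over 149 kb. Its main promoter region (chr18:39489162-39490942) was at the 34.1 percentile in the control and the 42.9 percentile in the db/db list by signal, but at 90.8 and 89.1 by −log10 p. Ranked only among the regions found in both lists, as explained below for all 10 genes, it changed by -6.25 points by signal and -6.30 by −log10 p, so its higher percentile by signal in db/db went with a lower rank. This region was wide, 1781 bp with 5 merged peaks. A second promoter region next to it (chr18:39491021-39491744) was at 8.58 and 24.6. The single db/db-only region of Nr3c1 lay in an intron (chr18:39460887-39461140) at the 36.2 percentile.

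Nr3c2 (ENSMUSG00000031618.13, chr8:76899442-77245012, plus strand), whose product binds aldosterone and corticosterone, had the most db/db-only regions of the 10 genes. It had 6 regions in the control and 13 in the db/db list, of which 7 were db/db-only (53.8%, 29.1 to 76.8). Among the 110 coding genes with 13 db/db regions, 37.1% of the regions were db/db-only, and 18 of those genes (16.4%) had at least 7. A share like that of Nr3c2 was therefore found at other genes with as many regions.

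All 7 db/db-only regions of Nr3c2 were intronic, and 6 of them lay between 65.8 and 136 kb from the gene start. In the control list, no region was found over the 218 kb that contain them. The strongest (chr8:77009334-77009836) was at the 64.7 percentile of the db/db list, above 95.4% of all db/db-only regions. The next (chr8:76964711-76965585) was at 55.8, above 90.5% of them. The remaining 5 ranged from 10.3 to 40.4. With lists of equal number, 3 regions of Nr3c2 stayed db/db-only.

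The promoter of Nr3c2 was in both lists. The stronger of its 2 promoter regions (chr8:76901654-76902660) was at 52.4 in the control and 63.1 in the db/db list by signal, and at 96.5 and 97.4 by −log10 p. The other (chr8:76898853-76899996) was at 9.72 and 21.4. The largest rise in rank at Nr3c2 was in an intron (chr8:77217517-77218322), at a region of the 44.9 percentile in the control and 71.6 in the db/db list. Its change in rank among shared regions was 16.3 points, and 11.5 points when regions were ranked by −log10 p.

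Percentiles in the whole list are not comparable between the lists for the same region, since they depend on how many weaker regions a list holds. For the comparison, shared regions that matched exactly 1 region of the other list, 43519 in all, were ranked among themselves in each list, and the change is the db/db minus the control rank in percentile points. Over the 55 shared regions at the 10 genes the median change was -0.726 (95% order-statistic interval -3.50 to 1.74), with 26 higher and 29 lower in db/db. The median over all coding genes was -0.0276. Changes of at least 10 points upward were found in 5 of the 55 regions (9.09%), against a background of 12.6%, and downward in 8 (14.5%), against 12.7%. The spread of the changes was also alike, with an SD of 11.0 points at the 10 genes and 10.5 at all coding genes. Ranked by −log10 p, 10 of the 55 regions were at least 10 points higher (18.2%, against 13.1% at coding genes) and 5 lower (9.09%, against 12.6%), so the order of the counts turned. Of the 13 regions past 10 points by signal, 11 changed in the same direction by −log10 p and 8 of them again by at least 10 points. The interval of the median by signal contained 0.

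**Figure D3:**
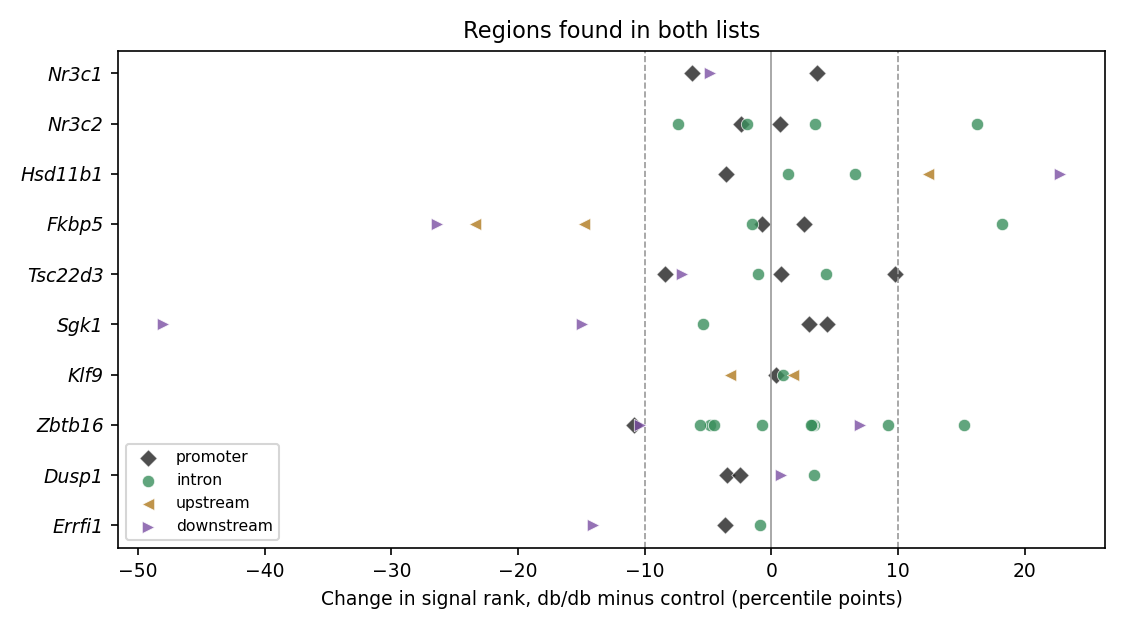
Change in signal rank, db/db minus control in percentile points, of the 55 regions found in both lists, by gene. Symbols give the place of the region, and dashed lines mark 10 points in either direction; the promoter regions lie between -10.8 and 9.75 and the regions farthest from 0 lie outside the genes, led by a downstream region of Sgk1 at -48.0.

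Hsd11b1 (ENSMUSG00000016194.14, chr1:193221634-193264075, minus strand) encodes the enzyme that regenerates active glucocorticoid from its inactive 11-keto form. It had 5 control and 7 db/db regions. Its promoter region (chr1:193242096-193242735) was at 52.1 in the control and 62.0 in the db/db list, with a change in rank of -3.57. Both db/db-only regions were intronic, at the 46.5 (chr1:193255665-193257404) and 48.7 percentile (chr1:193262009-193263025). These 2 regions lay between the promoter region and the outermost start site of the gene, 7.21 and 1.72 kb from that site.

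A pair of shared regions near Hsd11b1 rose in rank, and both lay at start sites of other genes. The larger rise, 22.8 points (chr1:193208255-193208561, percentile 54.3 in the control and 83.1 in the db/db list), lay 0.637 kb from a Lamb3 start site. It was 6.71 points by −log10 p. The other, 12.4 points (chr1:193272250-193273582, percentile 30.6 in the control and 57.2 in the db/db list), lay 0.096 kb from the start of G0s2. It was 15.9 points by −log10 p. Lamb3 encodes a laminin chain and G0s2 an inhibitor of lipolysis. Of the 21 regions outside the gene they were assigned to, 9 were nearer to the start of another coding gene.

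Among the targets, Fkbp5 (ENSMUSG00000024222.17, chr17:28399094-28517527, minus strand) encodes a co-chaperone that lowers the affinity of the glucocorticoid receptor for its ligand. Its promoter region (chr17:28485428-28486518) was at the 99.1 percentile in the control and the 98.8 percentile in the db/db list. The change in rank was -0.726. An intronic region (chr17:28407383-28407843) was at 91.1 and 92.7. The most open regions of Fkbp5 thus differed by less than 2 points in rank.

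The control-only region of Fkbp5 lay 18.6 kb downstream of the gene (chr17:28380144-28380835) at the 69.5 percentile of the control list. Its nearest coding start site was that of the photoreceptor gene Tulp1, 15.2 kb away, and regions at rod marker genes were often control-only (15 of 42, as given above). The part of rod chromatin in this region was not tested. A neighbouring shared region (chr17:28386186-28386844) was at 64.3 in the control and 53.4 in the db/db list, with a change in rank of -26.4, or -29.4 by −log10 p. Upstream of the gene, the region chr17:28527902-28528307 changed by -23.4 in rank, or -9.36 by −log10 p, and lay 2.65 kb from the start of Armc12. The region chr17:28522453-28522873, next to the db/db-only region whose sequence is printed above, changed by -14.8 by signal but by 5.29 by −log10 p, so that its direction depended on the measure. That db/db-only region was at the 37.5 percentile. The summits of both regions lay within 1 kb of starts of E230001N04Rik and Gm20109.

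An intronic region of Fkbp5 (chr17:28512330-28513122) moved the other way. It was at the 15.8 percentile in the control and 49.9 in the db/db list, with a change in rank of 18.2 by signal and 43.9 by −log10 p. The lower promoter region of Fkbp5 (chr17:28517467-28518598), at its outermost start site, was at 29.9 and 47.7, with a change of 2.56 by signal and 19.3 by −log10 p. Regions at Fkbp5 therefore changed in both directions, with a median of -1.51 over 7 shared regions.

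Sgk1 (ENSMUSG00000019970.15, chr10:21882184-21999903, plus strand) acts downstream of both receptors on ion transport and cell survival. It was the only gene with no db/db-only region, 0 of 5, and 27.9% of the 1819 coding genes with 5 db/db regions likewise had none. The promoter region that holds the TATA box (chr10:21993975-21994873) was at 77.2 in the control and 85.7 in the db/db list, with a change of 2.96. The smaller region before the palindrome (chr10:21993072-21993350) was at 4.61 and 19.5, with a change of 4.38. Neither promoter region of Sgk1 passed 10 points.

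Downstream of Sgk1, 2 shared regions fell in rank. The region chr10:22017611-22018229, 18.2 kb past the gene end, was at the 70.4 percentile in the control and 37.8 in the db/db list. Its change of -48.0 in rank, and -44.9 by −log10 p, was the lowest of the 55 shared regions. The region chr10:22010045-22010624, 10.4 kb past the gene end, was at 27.7 and 23.5, with a change in rank of -14.9, or -12.4 by −log10 p. For both, Sgk1 was the coding gene with the nearest start site. Both were also control-only when the lists were of equal number, a setting in which the db/db list was shortened by −log10 p. By that column the 2 regions stood at the 23.3 and 11.1 percentile of the full db/db list. Their absence from the shortened list was therefore not a result separate from their changes by −log10 p.

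Tsc22d3 (ENSMUSG00000031431.13, chrX:140539528-140600659, minus strand) encodes GILZ, a leucine zipper protein that carries part of the anti-inflammatory action of glucocorticoids. It had 6 control and 7 db/db regions, with 3 promoter regions at separate start sites. The highest of these (chrX:140548356-140548854) was at 53.7 and 59.4, the next (chrX:140541751-140543605) at 28.8 and 44.7, and the one at the outermost start (chrX:140600786-140601062) at 4.43 and 28.2. The strongest region of the gene was intronic (chrX:140572603-140573558), at 94.5 and 95.4. None of its 6 shared regions changed by 10 points, with a range from -8.41 to 9.75. Since sex was not given for the lists, the X chromosome was also counted alone: 8.19% of control regions there were control-only, against 4.07% on the autosomes, and 29.0% of db/db regions were db/db-only, against 31.4%.

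Klf9 (ENSMUSG00000033863.2, chr19:23141226-23168134, plus strand), a Krüppel-like transcription factor, had regions of low signal. Its promoter region (chr19:23140581-23142681) was 2101 bp wide with 5 merged peaks, and was at 5.96 and 13.9 by signal but at 64.0 and 72.3 by −log10 p. All 4 shared regions of Klf9 had changes between -3.23 and 1.74 by signal. One of them (chr19:23135397-23136433) changed by -19.7 by −log10 p. Of the 2 db/db-only regions, the stronger (chr19:23183543-23184390) lay 16.1 kb downstream at the 51.5 percentile, and the other (chr19:23162223-23163227) in an intron at 7.36.

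Zbtb16 (ENSMUSG00000066687.5, chr9:48654297-48836222, minus strand), which encodes the zinc finger repressor PLZF, had the most regions, 12 in the control and 16 in the db/db list. The 4 db/db-only regions (25.0%, 10.2 to 49.5) were all intronic and ranged from the 2.80 to the 40.4 percentile. Among the 57 coding genes with 16 db/db regions, 28.8% of regions were db/db-only. Its promoter region (chr9:48835594-48836764) was at 50.2 and 54.2, and was the only promoter region of the 10 genes to pass 10 points, with a change of -10.8. Ranked by −log10 p the change was 0.841, so the direction was not the same by both measures. An intronic region (chr9:48674843-48675777) was at 24.1 and 54.2, with a change in rank of 15.2 by signal and 15.9 by −log10 p. A region 7.90 kb downstream (chr9:48646260-48646554) changed by -10.3, and by -13.9 by −log10 p.

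Dusp1 (ENSMUSG00000024190.7, chr17:26505590-26562128, minus strand) encodes a phosphatase that switches off MAP kinases. The region at its main start site, which holds the cAMP response element printed above (chr17:26507880-26509019), was at 20.3 and 30.1 by signal and at 88.0 and 90.3 by −log10 p. A second region with a higher signal (chr17:26561093-26562192), at 91.0 and 91.9, lay at an outlying annotated start of Dusp1 that is also within 1 kb of the start of Ergic1, so it cannot be given to either gene. Changes at the 4 shared regions ran from -3.50 to 3.39. The 2 db/db-only regions, both downstream, were at 15.1 (chr17:26487229-26487642) and 2.93 (chr17:26502786-26503481).

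Errfi1 (ENSMUSG00000028967.10, chr4:150853919-150868892, plus strand) encodes MIG6, an inhibitor of the EGF receptor. Its promoter region (chr4:150854648-150855599), which also lies at the start of 1700045H11Rik, was at 80.9 and 83.8, with a change of -3.66. All 3 shared regions had negative changes, -0.903 for an intronic region and -14.1 for a region 3.14 kb downstream (chr4:150871326-150872710). The latter was -7.51 by −log10 p. The 1 db/db-only region (chr4:150861091-150861548) was intronic and at the 3.75 percentile.

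Promoters of all 10 genes were open in both lists, as were those of 58.5% of coding genes in the control and 61.6% in the db/db list. All 17 promoter regions were shared, 8 with a higher and 9 with a lower rank in db/db by signal, between -10.8 and 9.75 points. By −log10 p, 4 were higher and 13 lower, and 6 of the 17 had the opposite direction by the 2 columns. By that column the lower Fkbp5 promoter region alone passed 10 points. By signal these promoters were not among the strongest. The median percentile over the promoter region with the highest signal of each gene was 53.0 in the control and 62.5 in the db/db list, against 78.2 and 80.7 over coding genes with such a region. By −log10 p the order was the other way, with medians of 89.2 and 89.3 against 83.6 and 85.3. Whether the promoters of these genes ranked below or above those of other genes therefore depended on the column used.

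**Figure D4:**
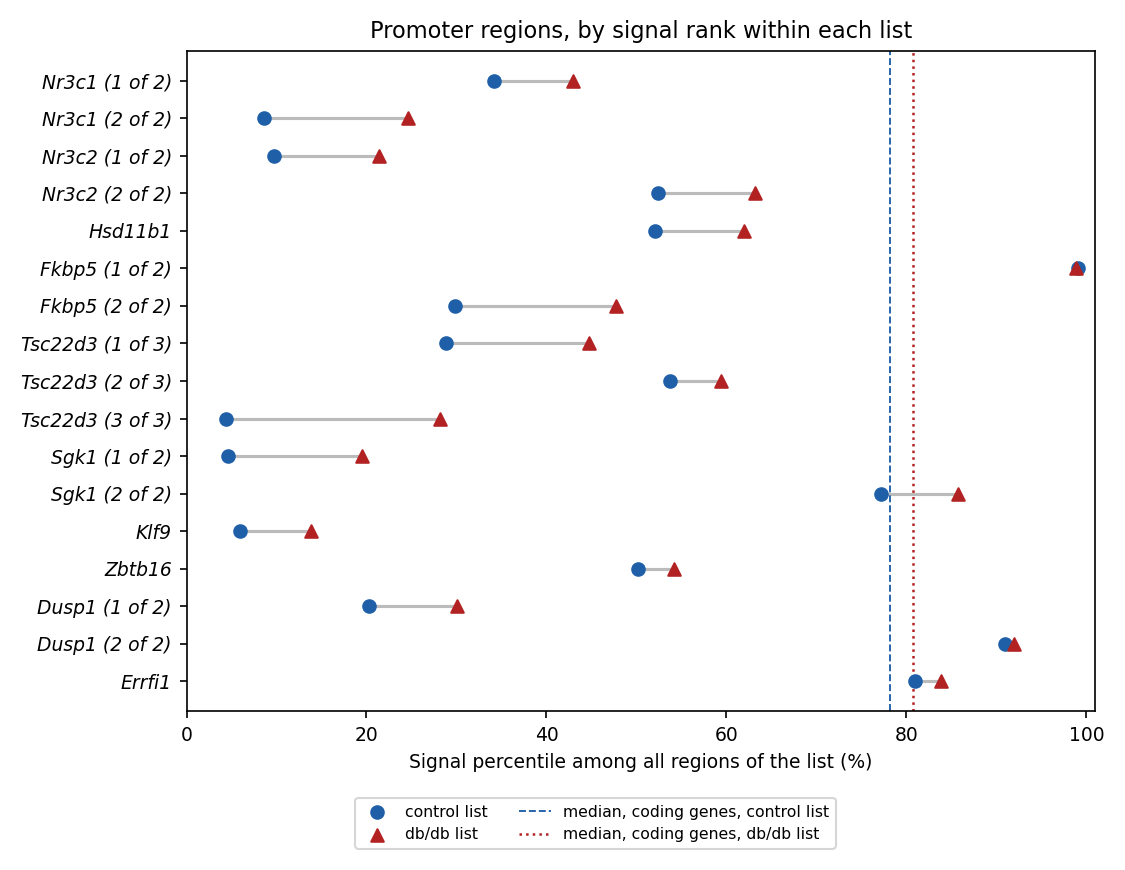
Signal percentile of each of the 17 promoter regions within the control list (blue circles) and the db/db list (red triangles), with vertical lines at the medians over coding genes (78.2 and 80.7). Regions of 1 gene are numbered by position on the chromosome; Fkbp5 is near 99 in both lists and Klf9 below 14.

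Other genes of the pathway were counted from lists of receptor machinery and of further targets. The 12 machinery genes (chaperones, coactivators, corepressors and the inactivating enzyme Hsd11b2) all had a promoter region in both lists. Of their 78 control regions 2 were control-only (2.56%, 0.706 to 8.88, against the background of 4.06%), at Ptges3 (chr10:128091447-128091679) and Nrip1 (chr16:76370119-76370341), and both were at the bottom of the list, at the 0.472 and 0.463 percentile. Of their 97 db/db regions 20 were db/db-only (20.6%, 13.8 to 29.7, against 29.7%). Of the 74 shared regions, 12 were at least 10 points higher (16.2%, against 12.6%) and 8 at least 10 points lower in db/db (10.8%, against 12.7%). Promoter regions that passed 10 points upward included those of the coactivator gene Ncoa1 (17.0) and of Hsd11b2 (17.1). Downward changes of that size were found at the corepressor genes Ncor1 (-12.6) and Nrip1 (-13.7) and the chaperone gene Hsp90ab1 (-10.1).

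The 19 further targets had 82 control regions, of which none was control-only. A count of 0 allows a share of up to 3.66% by 3 counts and 4.48% by the Wilson interval, and the latter takes in the background of 4.06%. Of their 111 db/db regions 28 were db/db-only (25.2%, 18.1 to 34.0, against 29.7%). Of 81 shared regions, 5 were at least 10 points higher (6.17%, against 12.6%) and 10 at least 10 points lower (12.3%, against 12.7%). A promoter region was found in both lists for 16 of the 19, and not for Anxa1, Lcn2 and Scnn1a. The promoter region rose by 16.4 points at Cdkn1a, the cell cycle inhibitor p21. It changed by -15.3 at Glul, the glutamine synthetase of Müller cells, by -14.5 at Ddit4, an inhibitor of mTOR signalling, and by -16.7 at Irs2, an insulin receptor substrate. The remaining 12 promoter regions changed by less than 10 points. Promoter changes of the machinery genes and the further targets are given by signal alone. At the 10 genes, 6 of the 17 promoter regions had the opposite direction by −log10 p.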

How the data were processed

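Müller cells of control and db/db mice were profiled by ATAC-seq, and 1 peak list per genotype, attached to replicate 1, was analysed; the other samples of the series were not analysed here. The genome build mm10 (GRCm38) is named in the submitters' processing notes. The study states csaw with loess normalisation and monaLisa for its own comparisons, whereas the peak caller, its threshold and any pooling of replicates are not given in the sources used here. The values deposited by the authors with each peak are a score, its fold enrichment (a ratio, here called signal), −log10 p, −log10 q and a summit. What these values were scaled to is not given in the sources used here, so the deposited signal and −log10 p were used only as ranks within a list, and the score was not used.

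Peaks on the autosomes, X and Y were merged where they overlapped, with the values of the peak of highest signal, and a region was shared when it overlapped the other list by at least 1 bp. Promoter regions had their summit within 1 kb of an annotated start site of the gene (GENCODE M21). Changes were read from the signal ranks among the 43519 shared regions with a single partner and counted from 10 percentile points. The 95% Wilson intervals of shares cover counting error alone, and a count of 0 allows 3 counts. The build was checked by the share of control summits within 1 kb of a coding start site, 29.8%, against 6.74% after a shift of 5000 bp. Read depth per list is unknown. With 1 list per genotype no test was made, and each result is set beside all coding genes or those with as many regions.

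Promoter sequences came from RefSeq (GRCm38.p6) and exonic sequence from GENCODE transcripts. All 10 genes were named with their regions, as were pathway genes with a control-only region or a promoter change of at least 10 points, except for a result that is not reported here. The genes, lists and strings were chosen with earlier results of these data known. Python 3.11.15, numpy 2.4.6, pandas 2.3.3, scipy 1.17.1 and matplotlib 3.10.9 were used, and the steps were tested on simulated data. Alternatives were the distance from the gene, the overlap, a stricter q value, lists of equal number, unmerged peaks, ranking by −log10 p, autosomes only, leaving out Zbtb16, and normal scores of ranks. Ranks in the whole list, leaving out regions at starts of other genes, and the longer receptor string were added after seeing the data.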

Additional observations from a re-analysis of the deposited data

How the results depend on the processing

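Of 54 recomputed main results, 46 stayed within their interval or within 1.5 times the main count. The control-only share, 1.79%, was 0% for regions that overlap the gene or lie up to 5 kb from it, because the Fkbp5 region lies farther away, and 14.3% with lists of equal number. The db/db-only share, 27.6%, was 15.8% with lists of equal number. Counting every peak gave 118 peaks for control and 161 for db/db, where merging gave 56 and 76 regions. The median change, -0.726 points, was 9.86 when percentiles were taken in the whole list, which holds more weak regions in db/db. It was 0.542 for regions that overlap the gene and 0.381 within 5 kb, positive but inside its interval. Genes with the receptor string rose from 1 with the core to 2 with the half-site alone. Leaving out regions at the starts of other genes, the X chromosome or Zbtb16 moved none of these shares or medians outside its interval. Among single genes, 282 of 355 recomputed values stayed within 1.5 times a count or within 1 SD of the changes over all shared regions, and 72 counts moved. The promoter change of Zbtb16, the only one past 10 points, turned from -10.8 to 0.841 when ranked by −log10 p, and the cause was not tested. Smaller changes also turned sign by −log10 p, from 2.96 to -0.666 at Sgk1 and from 0.381 to -3.09 at Klf9, the latter also with lists of equal number (-0.666). No paired analysis was possible because each genotype had 1 list. The lists give no read depth, so regions found in 1 list only cannot be told apart from regions just under the threshold of the other list, and exonic sequence covers few distal regions.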
